A study of Mus musculus with 7 samples.

Results

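The 10 genes Tmsb10, Tmsb4x, Actb, Actg1, Cotl1, Pfn1, Cfl1, Coro1a, Vim and Crip1 encode abundant proteins of the actin cytoskeleton, together with an intermediate filament protein (Vim) and a small LIM domain protein (Crip1). They are 10 of the 27998 genes listed in all 7 libraries, and each symbol matched 1 row. They were picked by symbol with results of these data in view, and the choice named 1 measurement, the low Tmsb10 of the Lag3KO_CD45 library. That difference is therefore described below without a test.

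The libraries are single-cell RNA libraries of central nervous system cells from B6 mice with experimental autoimmune encephalomyelitis, an inflammatory disease driven by T cells that recognise myelin, here induced with MOG35-55 peptide in every group. The groups were Lag3KO_CD4 (2 libraries), WT_CD4 (2 libraries), Lag3KO_CD45 (1 library) and WT_CD45 (2 libraries), from cells enriched with beads for CD4 or for CD45 at the peak of disease. The labels give the Lag3KO genotype as Lag3Floxed and the WT genotype as Lag3wt, name 5 mice per group with matched age, sex and disease score, and give neither a Cre line nor the age itself. They do not say which mice entered which library, so the spread behind every p-value may be technical. P-values between genotypes measure the spread between these libraries. Those between classes measure how class differences vary from library to library, with an estimate of spread shared by all classes of a fit.

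Lag3 was checked first as the targeted gene. The Lag3KO libraries held 1 and 0 (CD4) and 2 (CD45) Lag3 UMIs, against 289 and 107 in WT_CD4 and 304 in WT_CD45 1. The library labelled WT_CD45 2 held 4 Lag3 UMIs, which goes against its label, so the Tmsb10 difference of the CD45 libraries is also given against each WT library alone, and the other differences between these libraries rest on both. The deleted part of Lag3 is not given, and a 3′ tag outside it would check nothing. Sequencing gave from 4585251 to 18914420 UMIs per library, over 1428 to 2517 barcodes. Depth was lower in the CD4 set, with medians of 2086.5 to 2599.5 UMIs a barcode, than in the CD45 set, with medians of 5680.0 to 6405. Barcodes that carried markers of several classes together made up 1.74 to 3.46% of the CD4 libraries, 23.8% of Lag3KO_CD45 1 and 18.1% and 17.3% of the libraries labelled WT_CD45, and were set apart. Haemoglobin UMIs numbered 15670 in Lag3KO_CD4 2 and 55293 in WT_CD4 2 and were 0 in the other CD4 libraries. Between 0 and 12 barcodes were shared by any pair of libraries.

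Actin exists as monomers (G-actin) and as filaments (F-actin), and leukocytes move, engulf and form synapses by turning one into the other. The beta-thymosins Tmsb4x and Tmsb10 hold monomers in reserve, profilin 1 (Pfn1) hands them to growing filament ends, and cofilin 1 (Cfl1) severs and disassembles old filaments. Coronin 1A (Coro1a), which T cells need for survival and migration, and the coactosin-like protein Cotl1 bind filaments, vimentin (Vim) forms the intermediate filaments of mobile and mesenchymal cells, and Crip1 is a cysteine-rich LIM protein. Both actins, Actb and Actg1, are the cytoplasmic forms found in nearly every cell. All 10 are annotated as protein coding (GRCm38, GENCODE vM21). The actins lie at chr5:142903115-142906754 (Actb) and chr11:120345690-120348542 (Actg1), Tmsb4x at chrX:167207093-167209315, Pfn1 at chr11:70651850-70654644, Cotl1 at chr8:119809222-119840544 and Coro1a at chr7:126699773-126707787, all on the minus strand. Cfl1 lies at chr19:5490455-5495201, Vim at chr2:13573927-13582826 and Crip1 at chr12:113146316-113153879, all on the plus strand.

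Tmsb10 had a near-identical copy among the listed genes, and its coding sequence is printed because the clearest library difference below falls on it. Tmsb10 lies at chr6:72957347-72958748 on the minus strand and Gm9844 at chr7:24862213-24862697 on the plus strand (GRCm38, GENCODE vM21, both annotated as protein coding). The coding parts of 135 bases, from start to stop codon, differ at 2 positions, in capitals, counted from 1 at the A of the start codon and written with the Tmsb10 base first (C39T and C84T). Both differences fall on the third base of a codon and leave the encoded residue the same.

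Tmsb10: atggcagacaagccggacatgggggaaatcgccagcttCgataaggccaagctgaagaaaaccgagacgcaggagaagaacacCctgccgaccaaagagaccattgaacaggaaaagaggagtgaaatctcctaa
Gm9844: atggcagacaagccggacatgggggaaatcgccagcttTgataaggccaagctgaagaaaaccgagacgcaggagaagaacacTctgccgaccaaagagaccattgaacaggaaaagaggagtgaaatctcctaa

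In the last 600 bases of the transcripts, the end that 3′ tags sample, 462 of 466 aligned bases of Tmsb10 and Gm9844 were identical. Reads may therefore be split between them by the authors' counting, and Gm9844 held 3.68% as many UMIs as Tmsb10. Actb shared 377 bases with Lrrc58 in such an alignment (96.2% identity), and Lrrc58 held 4.31% as many UMIs as Actb. The other 8 members had no copy of at least 95% identity over 100 bases.

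Actg1 is shown by its promoter, since it was the member that differed in all 8 class comparisons below. Serum response factor, a transcription factor that responds to the pool of free actin monomers, is known to bind the CArG box in promoters of actin genes. The RefSeq promoter of Actg1 (chr11:120348446-120348745, minus strand, GRCm38.p6, 250 bases before to 50 after the start) holds 1 CArG box, in capitals, which begins at base 161.

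Actg1: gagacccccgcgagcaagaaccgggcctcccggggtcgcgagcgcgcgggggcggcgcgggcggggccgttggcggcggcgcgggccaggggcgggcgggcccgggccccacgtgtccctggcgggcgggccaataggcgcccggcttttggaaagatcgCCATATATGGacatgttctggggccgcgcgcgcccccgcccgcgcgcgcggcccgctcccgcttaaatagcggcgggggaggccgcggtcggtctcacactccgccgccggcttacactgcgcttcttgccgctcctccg

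The CArG box was searched as the letters CC, 6 of A or T, then GG, which reads the same on both strands. It was found in 1 of the 8 members with a RefSeq promoter in the table, and in 488 of 27025 genes (1.81%). The match describes these letters only, and Actb and Cotl1 had no entry.

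The first comparison asked how the members' levels differ between the cell classes of the inflamed central nervous system. Barcodes were put into classes by the UMIs of marker genes, none of which is a member, so a class name stands for barcodes that look like that cell type. Of these classes, 9 in the CD45 libraries and 5 in the CD4 libraries held at least 20 barcodes in every library. Levels are UMIs of the gene per 1000000 UMIs of the class in that library (CPM). Differences are log2 values, each with its standard error (SE), and were taken as each class minus the monocytes/macrophages of the same libraries, from edgeR's quasi-likelihood test with the library as a block. A gene was called at a Benjamini-Hochberg adjusted p under 0.05 over the 6257 genes tested in the CD45 libraries.

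In the CD45 libraries, T cells and conventional dendritic cells held more of most members than monocytes/macrophages did, while plasmacytoid dendritic cells held less of most and microglia less of 5 of the 10. In other T cells, the T cells outside the Treg and CD8 gates, 8 of the 10 members were higher and 1 was lower, where 30.9% of all genes tested were higher and 28.5% lower. In Tregs 7 were higher and 0 lower, against 22.3% and 24.0% of all genes. The members' median difference was 0.43 in other T cells and 0.32 in Tregs, where that of all genes was 0.05 and 0.00. Without Lag3KO_CD45 1, 5 members were called in other T cells, and Tmsb4x, Actb, Actg1 and Cotl1 were no longer past the threshold. In Tregs 4 members were called without Lag3KO_CD45 1 or without WT_CD45 1, and Tmsb4x, Cotl1 and Cfl1 were lost in both cases.

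Dendritic cells differed among themselves. In cDC1, the conventional dendritic cells that cross-present antigen to CD8 T cells, 8 members were higher and 1 was lower, against 16.8% and 18.6% of all genes. In cDC2, which here may include dendritic cells that arise from monocytes, 8 were higher and 0 lower, against 19.5% and 18.8%. In migratory dendritic cells, which carry Ccr7 and travel to lymph nodes, 6 were higher and 2 lower, against 24.5% and 25.3%, and the members' median difference of 1.03 stood beside -0.06 for all genes. In plasmacytoid dendritic cells, the main source of type I interferon among leukocytes, 1 was higher and 8 were lower, against 23.4% of all genes in each direction. Their median difference was -0.87, beside 0.03 for all genes.

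B cells and microglia were the other classes with more lower than higher members. In B cells 1 member was higher and 5 were lower, against 15.7% and 21.4% of all genes. In microglia, the resident macrophages of the brain, 0 were higher and 5 lower, against 8.01% and 6.52%, and 3 were called without Lag3KO_CD45 1, where Actg1 and Pfn1 dropped out. Scaling by total UMIs in place of TMM moved the median of all genes by -0.16 (migratory dendritic cells) to 0.24 (Tregs) on the log2 scale. Under it every called member kept its direction in each of the 8 comparisons, and all but Vim in other T cells and Pfn1 in plasmacytoid dendritic cells were called again.

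**Figure D1:**
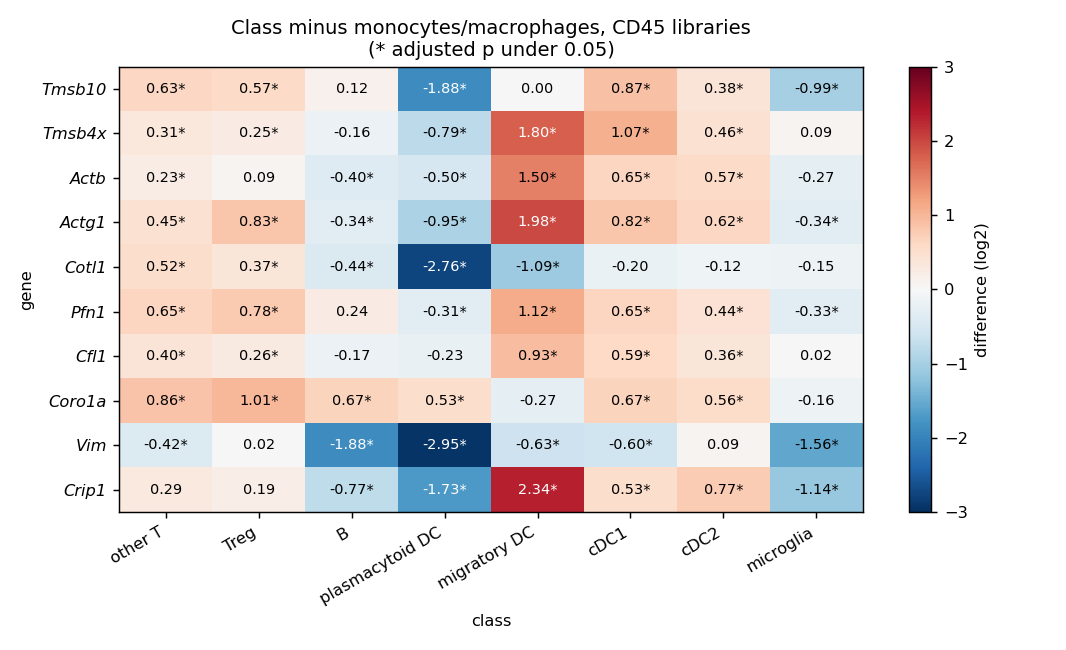
Difference of each member (rows) between each class (columns) and monocytes/macrophages in the 3 CD45 libraries, on the log2 scale, with an asterisk at an adjusted p under 0.05. Migratory dendritic cells reach 2.34 for Crip1 and 1.98 for Actg1, and plasmacytoid dendritic cells reach -2.95 for Vim and -2.76 for Cotl1.

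The beta-thymosins took different orders across classes. Tmsb4x was highest in migratory dendritic cells, at 56975 CPM in Lag3KO_CD45 1 and 61418 and 60789 CPM in the libraries labelled WT_CD45, which is 1.80 ± 0.08 above monocytes/macrophages (log2 ± SE, edgeR adjusted p = 4.17e-21). The next class was cDC1, at 44567 CPM in Lag3KO_CD45 1 and 35978 and 42341 CPM in the libraries labelled WT_CD45, and no library of either class overlapped with the class after it. Tregs (mean 26571 CPM), cDC2 (26521 CPM) and other T cells (26266 CPM) followed with overlapping ranges. Microglia, monocytes/macrophages, B cells and plasmacytoid dendritic cells came next in that order, each with a range apart from the next. The differences from monocytes/macrophages were not called in microglia (0.09 ± 0.08, edgeR adjusted p = 0.530) or B cells (-0.16 ± 0.08, edgeR adjusted p = 0.106).

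Tmsb10 did not follow Tmsb4x into migratory dendritic cells. There it measured 1369 CPM in Lag3KO_CD45 1 and 2787 and 2462 CPM in the libraries labelled WT_CD45, against 1620 CPM and 3082 and 2622 CPM in monocytes/macrophages of the same libraries, a difference of 0.00 ± 0.10 (edgeR adjusted p = 0.987). That sign turned under 6 other settings, all near 0 and none past the threshold. Tmsb10 was highest in cDC1 (mean 4450 CPM), Tregs (4210 CPM) and other T cells (4136 CPM), whose ranges overlapped. It was 0.87 ± 0.10, 0.57 ± 0.10 and 0.63 ± 0.10 above monocytes/macrophages in these 3 classes (edgeR adjusted p = 2.15e-09, 6.81e-06 and 5.13e-07). It was lowest in plasmacytoid dendritic cells, at 579.8 CPM in Lag3KO_CD45 1 and 837.2 and 792.2 CPM in the libraries labelled WT_CD45, a difference of -1.88 ± 0.11 from monocytes/macrophages, and no plasmacytoid library overlapped with the microglia, the class above. In cDC2 the difference of 0.38 ± 0.10 was not past the threshold without Lag3KO_CD45 1.

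**Figure D2:**
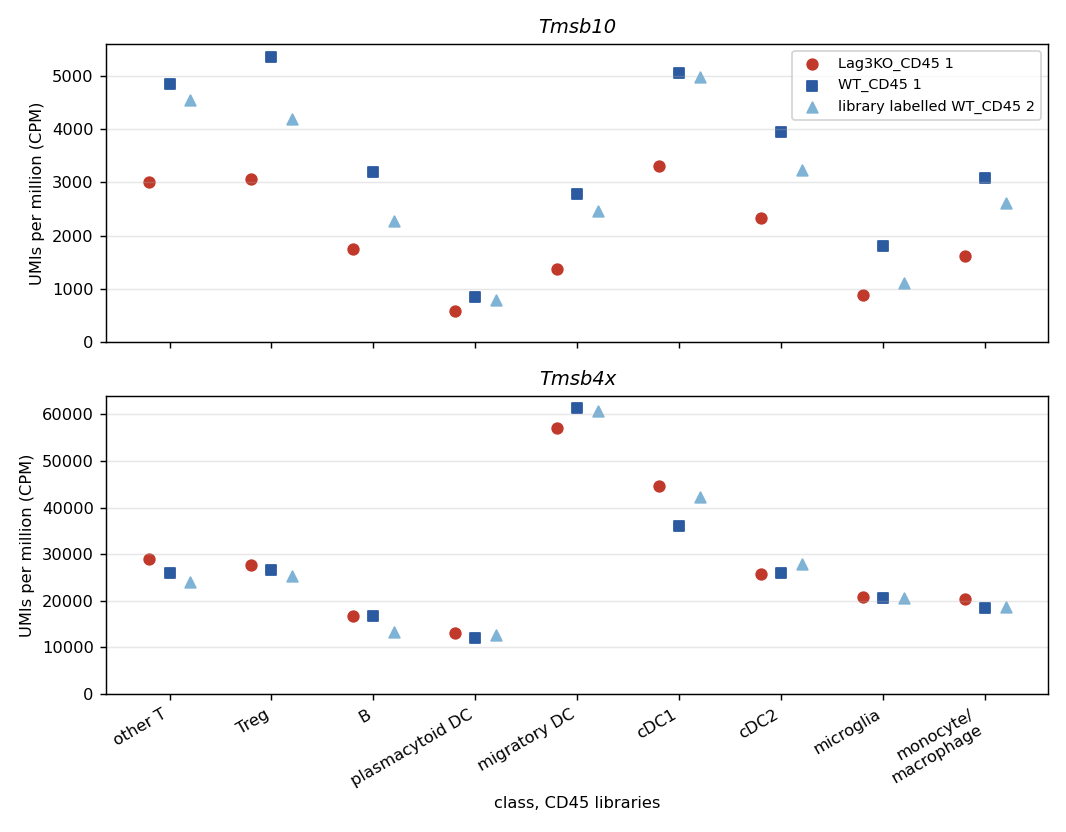
Tmsb10 (upper panel) and Tmsb4x (lower panel) in CPM, for each of the 3 CD45 libraries in 9 classes, with 1 point per library. Tmsb10 of Lag3KO_CD45 1 is the lowest point in every class, and Tmsb4x peaks in migratory dendritic cells at 56975 to 61418 CPM.

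Both actins peaked in migratory dendritic cells. Actb measured 10300.0 CPM there in Lag3KO_CD45 1 and 8503 and 10784 CPM in the libraries labelled WT_CD45 (1.5 ± 0.10 above monocytes/macrophages, edgeR adjusted p = 6.25e-16). Actg1 measured 10005 CPM and 9684 and 9781 CPM in the same order (1.98 ± 0.11, adjusted p = 3.19e-18 by edgeR). For both genes the 3 libraries stood above all libraries of the next class, which was cDC1 for Actb and Tregs for Actg1.

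The actins parted in T cells. In Tregs Actg1 was at 6845 CPM in Lag3KO_CD45 1 and 5837 and 4788 CPM in the libraries labelled WT_CD45, 0.83 ± 0.11 above monocytes/macrophages (edgeR adjusted p = 4.7e-08). Actb in Tregs differed from them by 0.09 ± 0.10 and was not called (edgeR adjusted p = 0.485). In other T cells the Actb difference of 0.23 ± 0.10 passed narrowly (edgeR adjusted p = 0.0434) and did not pass with DESeq2, without a count filter, or with clusters in place of marker gates, where it was -0.00. The fewest actin transcripts were in plasmacytoid dendritic cells for Actg1 (mean 1636 CPM) and in B cells for Actb (mean 2680 CPM), and these ranges overlapped with the class above.

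Profilin and cofilin, which feed and dismantle filaments, moved over a narrower range. Pfn1 was higher in 5 of 8 classes and lower in 2, with its highest means in Tregs (4973 CPM) and migratory dendritic cells (4863 CPM), which overlapped. Its largest difference was 1.12 ± 0.10, in migratory dendritic cells, and its lowest -0.33 ± 0.10, in microglia. Cfl1 was higher in 5 of 8 classes and called lower in 0, and reached 0.93 ± 0.10 in migratory dendritic cells (edgeR adjusted p = 4.9e-10). Its class means ran from 943.2 CPM in B cells to 1995 CPM in migratory dendritic cells, and most neighbours in this order overlapped.

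Coro1a was higher than in monocytes/macrophages in 6 of 8 classes and lower in 0. It measured 2008 CPM in Tregs of Lag3KO_CD45 1 and 1947 and 1589 CPM in those of the libraries labelled WT_CD45, 1.01 ± 0.12 above monocytes/macrophages (edgeR adjusted p = 3.12e-09), and 0.86 ± 0.11 above them in other T cells. It was also 0.67 ± 0.13 higher in B cells and 0.53 ± 0.12 higher in plasmacytoid dendritic cells, where 8 other members were lower. Migratory dendritic cells had the lowest Coro1a, at 510.9 CPM in Lag3KO_CD45 1 and 619.6 and 609.6 CPM in the libraries labelled WT_CD45, below every library of the next class, although their difference from monocytes/macrophages of -0.27 ± 0.12 was not called (edgeR adjusted p = 0.0614).

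Cotl1, which like Coro1a binds filaments, was higher in T cells alone of the classes tested. It measured 1421 CPM in other T cells of Lag3KO_CD45 1 and 951.0 and 1050.0 CPM in those of the libraries labelled WT_CD45, 0.52 ± 0.11 above monocytes/macrophages (edgeR adjusted p = 0.000145), a call lost without Lag3KO_CD45 1. In plasmacytoid dendritic cells it measured 147.3 CPM in Lag3KO_CD45 1 and 118.7 and 86.1 CPM in the libraries labelled WT_CD45 (-2.76 ± 0.17, edgeR adjusted p = 1.78e-16). Migratory dendritic cells came next from below (mean 303.7 CPM, -1.09 ± 0.15), so the class with the most actin transcripts held little Cotl1.

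Vim was lower than in monocytes/macrophages in 6 of 8 classes and called higher in 0. In plasmacytoid dendritic cells it measured 262.3 CPM in Lag3KO_CD45 1 and 85.7 and 182.6 CPM in the libraries labelled WT_CD45, a difference of -2.95 ± 0.16 (edgeR adjusted p = 4.29e-18). It was also low in B cells (-1.88 ± 0.18) and microglia (-1.56 ± 0.15). Tregs had the highest mean (1499 CPM), with ranges that overlapped with cDC2 and monocytes/macrophages, and other T cells were 0.42 ± 0.12 below monocytes/macrophages (edgeR adjusted p = 0.0027).

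Crip1 had the largest difference of the 10 members in migratory dendritic cells. It measured 12464 CPM there in Lag3KO_CD45 1 and 9494 and 9758 CPM in the libraries labelled WT_CD45, against 2251 CPM and 2418 and 2264 CPM in monocytes/macrophages, a difference of 2.34 ± 0.14 (edgeR adjusted p = 2.37e-17). cDC2 (0.77 ± 0.13) and cDC1 (0.53 ± 0.14) were also higher, the cDC1 call being lost without Lag3KO_CD45 1. Plasmacytoid dendritic cells (-1.73 ± 0.15), microglia (-1.14 ± 0.15) and B cells (-0.77 ± 0.15) were lower, and both T cell classes were not called.

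The members' summed share of a class shows how far the classes stood apart. It was 9.93% of all UMIs in migratory dendritic cells of Lag3KO_CD45 1 and 10.05% and 10.2% in those of the libraries labelled WT_CD45. In monocytes/macrophages it was 3.72% in Lag3KO_CD45 1 and 3.70% and 3.67% in the libraries labelled WT_CD45. Plasmacytoid dendritic cells had 2.51% in Lag3KO_CD45 1 and 2.28% and 2.35% in the others, so the share differed between classes far more than between libraries of a class.

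The same class fit in the CD4 libraries was chosen after the data had been seen. It is set beside these values without a test between the sorts. The 2 sets of libraries also differ in depth per barcode and in the genes their files list. The CD4 files list 27998 genes and the CD45 files 28692. Coro1a, Actg1 and Tmsb10 were again higher in T cells than in monocytes/macrophages. In other T cells 3 members were higher and 2 lower, against 29.3% and 28.5% of the 5367 genes tested. In Tregs 3 were higher and 1 lower, against 27.6% and 28.2%. Coro1a was 1.04 ± 0.12 higher in other T cells and 1.06 ± 0.13 higher in Tregs (edgeR adjusted p = 1.49e-08 and 1.37e-08). Actb took the opposite sign to the CD45 libraries in other T cells, at -0.49 ± 0.14 (edgeR adjusted p = 0.0033), and was -0.60 ± 0.14 in Tregs.

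Microglia and neutrophils of the CD4 libraries held very little Crip1. In microglia 0 members were higher and 6 lower, against 15.4% and 17.3% of all genes, and in neutrophils 4 were higher and 3 lower, against 13.0% and 23.6%. Crip1 in microglia measured 76.9 and 42.4 CPM in Lag3KO_CD4 and 45.7 and 91.9 CPM in WT_CD4, a difference from monocytes/macrophages of -5.33 ± 0.27 (edgeR adjusted p = 1.77e-16). In the CD45 libraries it measured 1216 CPM in Lag3KO_CD45 1 and 1412 and 685.1 CPM in the libraries labelled WT_CD45, far above every CD4 library. Lyz2, a monocyte and macrophage gene, moved with it in microglia, at 426.2 and 365.0 CPM in Lag3KO_CD4 and 487.1 and 685.5 CPM in WT_CD4, against 10136 CPM in Lag3KO_CD45 1 and 7259 and 8045 CPM in the libraries labelled WT_CD45. Of the 15 monocyte/macrophage markers, 10 to 13 had a UMI in microglia of a CD4 library and 15 in those of each CD45 library. Ms4a7, Arg1 and Chil3 were each at 0 in at least 2 of the CD4 libraries, and Ly6c2 and Ccr2 in some. The markers summed to 43392 and 40199.6 CPM in Lag3KO_CD4 and 48862 and 44564 CPM in WT_CD4, and to 50015 CPM in Lag3KO_CD45 1 and 38166 and 52909 CPM in the libraries labelled WT_CD45. The 9 microglia markers summed to 10601 and 12338 CPM in Lag3KO_CD4 and 14248 and 15985 CPM in WT_CD4, and to 5810 CPM in Lag3KO_CD45 1 and 5609 and 6748 CPM in the libraries labelled WT_CD45. When barcodes were clustered, 200 microglia of the CD4 libraries fell in 1 microglia cluster, and 52 lay in 1 unnamed cluster with 49 monocytes/macrophages. In the CD45 libraries no cluster was named microglia. There 54 and 48 microglia lay in 2 unnamed clusters with 145 and 343 barcodes of mixed markers and 0 and 180 monocytes/macrophages. The part of monocyte/macrophage RNA or of mixed barcodes in the microglial levels was not tested.

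In the CD4 libraries neutrophils, short-lived phagocytes that carry little RNA, were higher than monocytes/macrophages in Coro1a (1.27 ± 0.14), Pfn1 (1.03 ± 0.11), Tmsb4x (0.69 ± 0.11) and Cotl1 (0.43 ± 0.13). Their Crip1 rested on 22 and 0 UMIs in Lag3KO_CD4 and 3 and 1 UMIs in WT_CD4, where monocytes/macrophages had 621 and 553 UMIs in Lag3KO_CD4 and 510 and 347 UMIs in WT_CD4, so no fold is given. Tmsb10 was lower in neutrophils (-2.15 ± 0.22) and in microglia (-2.95 ± 0.20), so both thymosins again parted, since Tmsb4x was not lower in either class.

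The second comparison set Tregs, the cells the series is about, beside the other T cells of the same CD4 libraries. Vim and Actg1 were higher in Tregs, and Tmsb10, Crip1, Cfl1, Cotl1 and Actb were slightly lower. Of the 10 members 2 were higher and 5 lower, where 8.42% of the 8610 genes tested were higher and 8.03% lower. Vim measured 1256 and 1394 CPM in Tregs of Lag3KO_CD4 and 1341 and 1339 CPM in those of WT_CD4, against 1023 and 825.1 CPM in other T cells of Lag3KO_CD4 and 914.3 and 917.0 CPM in those of WT_CD4. The ranges did not overlap, and the difference was 0.48 ± 0.05 (edgeR adjusted p = 5.63e-09). Actg1 measured 5197 and 6419 CPM in Tregs of Lag3KO_CD4 and 5746 and 6627 CPM in those of WT_CD4, against 4340.3 and 4901 CPM in other T cells of Lag3KO_CD4 and 4400.4 and 4565 CPM in those of WT_CD4. These ranges did not overlap either (0.33 ± 0.03, edgeR adjusted p = 9.55e-10).

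Tmsb10 was lower in Tregs than in other T cells within each of the 4 libraries. It measured 5465 and 6099 CPM in Tregs of Lag3KO_CD4 and 5177 and 7361 CPM in those of WT_CD4, against 6124 and 6842 CPM in other T cells of Lag3KO_CD4 and 5576 and 8585 CPM in those of WT_CD4 (-0.22 ± 0.02, edgeR adjusted p = 2.23e-08). The groups overlapped between libraries, so the difference rests on the library as a block. The smaller differences of Crip1 (-0.16 ± 0.04), Cfl1 (-0.13 ± 0.04), Cotl1 (-0.12 ± 0.04) and Actb (-0.11 ± 0.03) were lost with DESeq2 and with scaling by total UMIs, which left 3 members called. With 1 library less, 4 members were called without Lag3KO_CD4 1, where Actb, Cotl1 and Cfl1 were lost, and 4 without WT_CD4 1, where Cotl1, Cfl1 and Crip1 were lost. Tmsb4x (-0.05 ± 0.02), Pfn1 (0.01 ± 0.03) and Coro1a (0.02 ± 0.03) were not called.

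**Figure D3:**
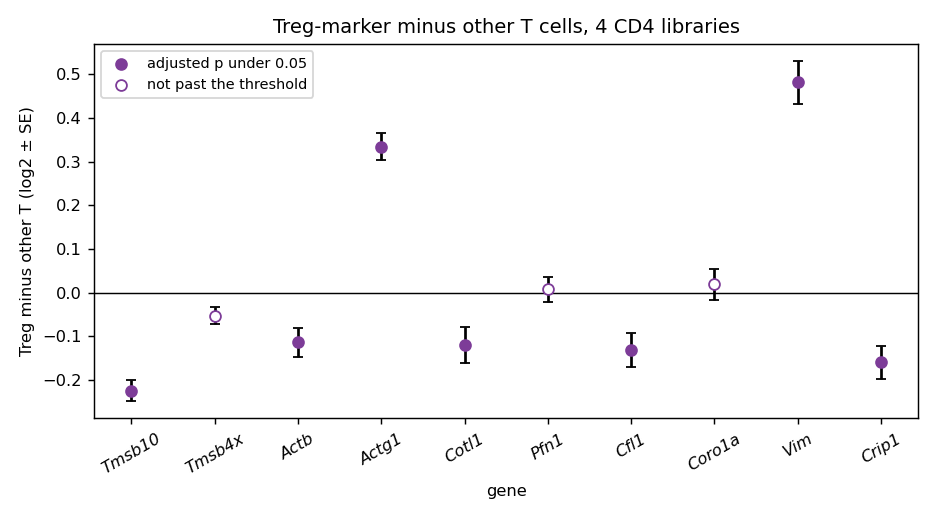
Difference between Tregs and other T cells in the 4 CD4 libraries for each member, on the log2 scale, with bars of 1 standard error and filled points at an adjusted p under 0.05. Vim (0.48) and Actg1 (0.33) stand above 0, and Tmsb10 (-0.22) is the lowest point.

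Single genes of the actin machinery outside the members also differed between the same T cells. Of a list of 83 such genes, 75 were tested, and 9 were higher and 9 lower in Tregs, where 8.42% of all genes were higher and 8.03% lower, with a median difference of -0.02 where that of all genes was -0.00. The higher ones included Rhoh, a small GTPase of blood cells (0.60 ± 0.06, edgeR adjusted p = 1.31e-08), the filament capper Capg (0.55 ± 0.06, edgeR adjusted p = 3.89e-08) and Enah, which helps filaments elongate (1.63 ± 0.39, edgeR adjusted p = 0.0028). The lower ones included the coronin Coro1c (-0.66 ± 0.14), the elongation factor Evl (-0.59 ± 0.09) and Lsp1, a filament binder of leukocytes (-0.38 ± 0.05, edgeR adjusted p = 3.47e-07). Enah and Evl belong to the same protein family and went in opposite directions, and the genes named here were chosen after their values were seen. With DESeq2, 9 of the list were called in all.

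Between other T cells and monocytes/macrophages of the CD45 libraries, 23 of the 70 tested genes of this list were higher and 19 lower, close to the 30.9% and 28.5% of all genes, so these counts do not set the list apart. The small GTPases Rhoh (1.95 ± 0.15) and Rac2 (1.94 ± 0.09, edgeR adjusted p = 2.56e-20), the membrane linker Ezr (1.19 ± 0.14) and the myosin light chain Myl6 (1.03 ± 0.10) were higher. Plek, the main substrate of protein kinase C in platelets (-2.81 ± 0.17), the severing protein Gsn (-2.60 ± 0.19) and the cofilin relative Dstn (-1.33 ± 0.14) were lower. Among severing, capping and monomer-binding genes 6 of 15 tested were higher and 4 lower, and among Arp2/3 subunits and nucleators, which start branched filaments, 3 of 18 were higher and 6 lower. The cofilin family thus split here, with Cfl1 higher (0.40 ± 0.10) and Dstn lower.

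The third comparison asked whether the library difference between genotypes recurs in every class. In the CD45 libraries Tmsb10 was lower in Lag3KO_CD45 1 than in both libraries labelled WT_CD45 in 9 of 9 classes. With 1 Lag3KO library, and with this difference used to choose the members, it is a description of 3 libraries. Counting intervals are 95% Poisson intervals, which cover counting error only.

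In T cells Tmsb10 measured 3003 CPM (interval 2878 to 3133) in Lag3KO_CD45 1, against 4845 and 4559 CPM in the libraries labelled WT_CD45, in other T cells, and 3064 CPM against 5367 and 4198 CPM in Tregs. In monocytes/macrophages it measured 1620 CPM (interval 1588 to 1652) in Lag3KO_CD45 1, from 9968 UMIs, against 3082 and 2622 CPM. In migratory dendritic cells it was 1369 CPM against 2787 and 2462 CPM, the largest of the differences. All of these Lag3KO values lie below the counting intervals of both other libraries.

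The same held in the less abundant classes. Tmsb10 measured 3316 CPM in Lag3KO_CD45 1 against 5055 and 4979 CPM in the libraries labelled WT_CD45 in cDC1, and 2335 CPM against 3951 and 3242 CPM in cDC2. It measured 1755 CPM against 3205 and 2278 CPM in B cells, and 877.2 CPM against 1807 and 1114 CPM in microglia. In plasmacytoid dendritic cells it measured 579.8 CPM (interval 510.4 to 656.0) against 837.2 and 792.2 CPM, whose intervals reach down to 737.4 and 693.1 CPM.

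On the log2 scale, against the mean of both libraries labelled WT_CD45 and with 1 CPM added, the Tmsb10 difference ran from -0.94 in migratory dendritic cells to -0.49 in plasmacytoid dendritic cells, with a median of -0.64 over the 9 classes. Past a difference of 0.5 and outside both WT libraries lay 8 of 9 classes, with cDC1 (-0.60) just inside and plasmacytoid dendritic cells just outside. The library labelled WT_CD45 2 was itself below WT_CD45 1 in every class, by a median of -0.23. Against WT_CD45 1 alone the median was -0.81, and against the library labelled WT_CD45 2 alone it was -0.47. Its copy Gm9844 was itself below both libraries labelled WT_CD45 in 7 of 9 classes, with a median of -0.91. Summing Tmsb10 with Gm9844 left 9 of 9 classes below both libraries, with a median of -0.66 and a range from -0.95 to -0.44. Gm9844 held 3.68% as many UMIs as Tmsb10, so it could barely move the sum. Any reads left uncounted for matching both genes are also missing from it, so the sum is no check on the counting. With TMM scaling the values ran from -0.97 to -0.51.

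No other member was shifted one way in all classes. Of the genes with a mean of at least 50 CPM in the class, those past 0.5 and outside both libraries labelled WT_CD45 were 5.71% lower and 3.88% higher in other T cells, where Tmsb10 was lower and Cotl1 higher (0.51). In Tregs the shares were 11.1% lower and 12.1% higher, in migratory dendritic cells 9.55% and 8.88%, in cDC2 3.87% and 5.09%, in microglia 8.66% and 7.75%, and in monocytes/macrophages 2.55% and 0.571%, and in each of these 5 classes Tmsb10 alone of the members lay past 0.5. In B cells (17.0% lower and 11.6% higher) Tmsb10 was lower, and Cotl1 (1.06) and Coro1a (0.56) were higher. In cDC1 (9.60% lower and 12.7% higher) Tmsb10 was lower and Crip1 (0.51) higher. In plasmacytoid dendritic cells (6.50% lower and 8.99% higher) 0 members were past it on the lower side, and Cotl1 (0.52), Vim (0.96) and Crip1 (0.54) were on the higher side.

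**Figure D4:**
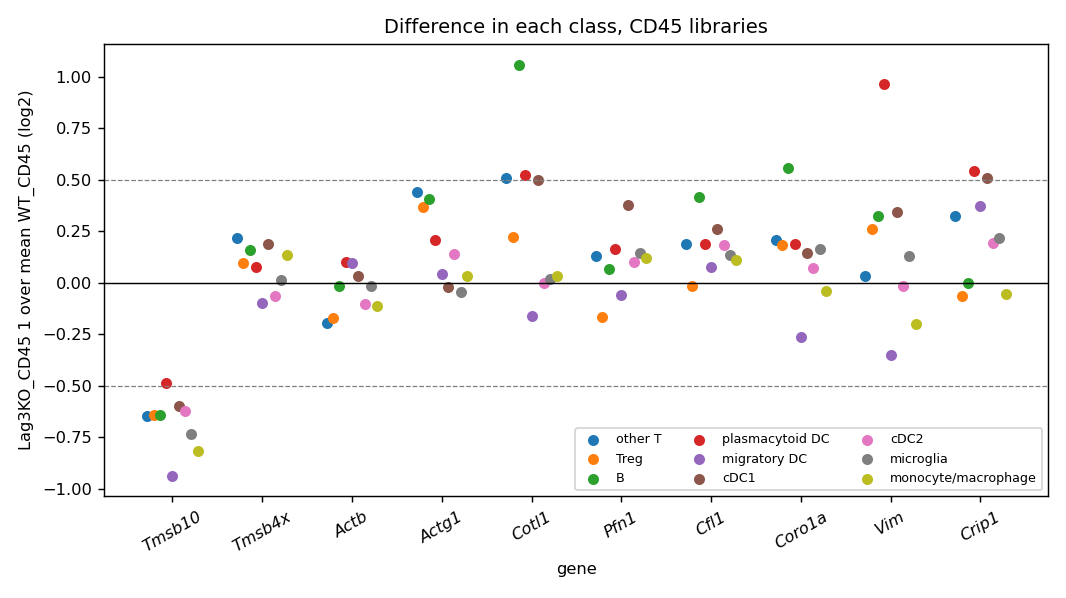
Difference between Lag3KO_CD45 1 and the mean of the libraries labelled WT_CD45 for each member (log2, 1 CPM added), with 1 point per class and dashed lines at 0.5 and -0.5. All 9 points of Tmsb10 lie between -0.94 and -0.49, and the points of each other member lie on both sides of 0.

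Tmsb4x, the sister of Tmsb10, was above both libraries labelled WT_CD45 in 7 of 9 classes and below both in 2, by -0.10 to 0.21. Actb ran from -0.20 to 0.10 and Actg1 from -0.05 to 0.44. Pfn1 (-0.17 to 0.38) and Coro1a (-0.27 to 0.56) were above both libraries in 7 classes and below both in 2. Cfl1 (-0.01 to 0.42) was above both in 7 and below both in 0, and Cotl1 (-0.16 to 1.06) above both in 6 and below both in 0. These ranges held values on both sides of 0 for each of these genes.

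The low Tmsb10 was shared with other genes. Of 1192 genes with a mean of at least 50 CPM in each class, 37 (3.10%) were below both libraries labelled WT_CD45 in every class and 5 were above both in every class. A difference of -0.5 or less in every class was found for 19 genes, and one of 0.5 or more for 0. Of the 19, 7 carry Gm names, given to predicted genes. Those with the lowest medians were Gm10076 (-1.18), Rpl36-ps3 (-1.17), Rps27 (-1.10), Fau (-1.07) and Gm17430 (-1.04), and 28 genes had a median below that of Tmsb10.

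Genotype was tested in the CD4 libraries, which the choice of members did not name. No member was called between Lag3KO_CD4 and WT_CD4 in any of 5 classes by edgeR's quasi-likelihood test, with 0 of 10 in each class (0 of 9 tested in neutrophils). The calls over all genes were few, at 0.0327% of 9174 genes in other T cells, 0.178% in Tregs, 0.272% in microglia, 0.348% in neutrophils and 0.166% in monocytes/macrophages. At an unadjusted p under 0.05 there were 212, 314, 267, 77 and 113 genes in these classes, in the same order. DESeq2 also called 0 members in each class. In neutrophils 1 member was called without WT_CD4 1 and 1 without WT_CD4 2, where a single WT library is left.

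Tmsb10 in other T cells measured 6124 and 6842 CPM in Lag3KO_CD4 and 5576 and 8585 CPM in WT_CD4, a difference of -0.11 ± 0.20 (edgeR adjusted p = 1.00). The WT libraries lay on either side of both Lag3KO libraries. In Tregs the difference was -0.09 ± 0.16 and in monocytes/macrophages -0.08 ± 0.31. In these 3 classes the range of the Lag3KO libraries overlapped that of the WT libraries, although Lag3KO_CD4 1 was below both WT libraries in monocytes/macrophages. The Tmsb10 difference took the opposite sign in microglia (0.29 ± 0.24) and in neutrophils (0.52 ± 0.40), and was not called there either. Whether the genotype difference depends on the sort was not tested.

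In other T cells, Tregs and monocytes/macrophages, Actb and Tmsb10 were higher in the library of each genotype that held haemoglobin UMIs. Actb in monocytes/macrophages measured 4399 and 8418 CPM in Lag3KO_CD4 1 and 2 and 5765 and 11525 CPM in WT_CD4 1 and 2, where the libraries numbered 2 are those with haemoglobin. Tmsb10 in the same class measured 2479 and 4787 CPM in Lag3KO_CD4 1 and 2 and 2650 and 4931 CPM in WT_CD4 1 and 2. Tmsb10 went the other way in Lag3KO_CD4 in 2 classes, at 602 CPM in Lag3KO_CD4 1 and 549 CPM in Lag3KO_CD4 2 in microglia, and at 1137 and 425 CPM in neutrophils. Actb was 7221 CPM in Lag3KO_CD4 1 and 5001 CPM in Lag3KO_CD4 2 in neutrophils. The part of the haemoglobin-bearing material in this was not tested. With these libraries as a block, chosen after seeing the data, Actb was lower in Tregs of Lag3KO_CD4 (-0.36 ± 0.07, edgeR adjusted p = 0.0278), where without the block it was -0.34 ± 0.16 (edgeR adjusted p = 0.998). Its values in Tregs were 3978 and 5661 CPM in Lag3KO_CD4 1 and 2 and 5686 and 6737 CPM in WT_CD4 1 and 2.

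**Figure D5:**
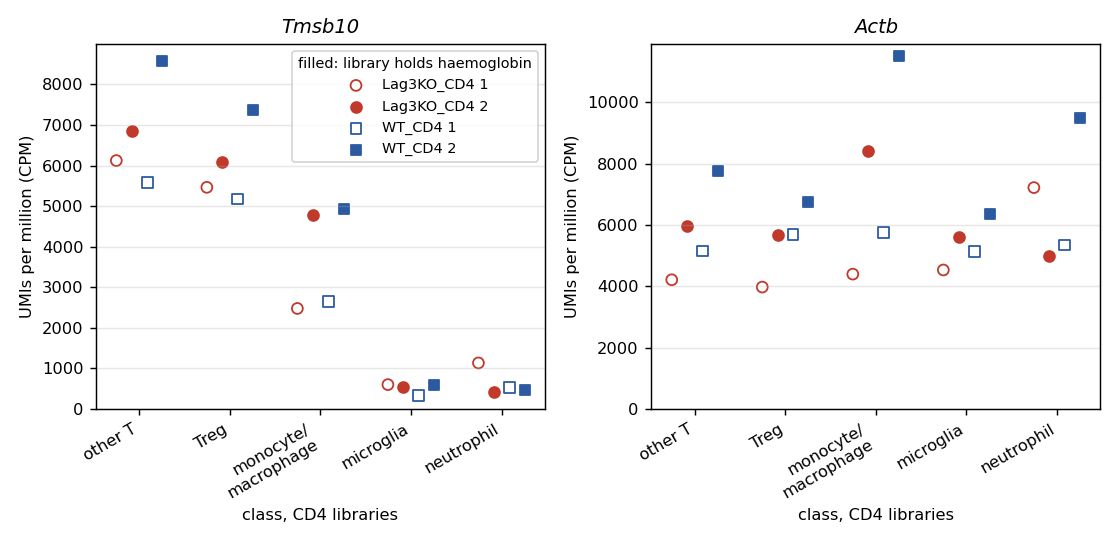
Tmsb10 (left) and Actb (right) in CPM in the 4 CD4 libraries, with 1 point per library and filled points for the libraries with haemoglobin UMIs. In monocytes/macrophages the filled points of Actb (8418 and 11525 CPM) lie above both open points (4399 and 5765 CPM).

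In the 83-gene list, without the haemoglobin block, only Tpm3, a tropomyosin that coats filaments, and its copy Tpm3-rs7 were called between genotypes in the CD4 libraries, in each of the 5 classes and in opposite directions. Tpm3 had log2 differences of -2.84 to -2.04 and Tpm3-rs7 was higher, and DESeq2 called 0 of the list in neutrophils. The log2 difference of their summed CPM ran from -0.25 in neutrophils, where both Lag3KO sums lay below both WT sums, to 0.31 in microglia. In the CD45 libraries Tpm3-rs7 did not follow the genotype labels, at 157 CPM in Lag3KO_CD45 1 and 175 and 23.6 CPM in the libraries labelled WT_CD45 in other T cells, and at 107 CPM against 149 and 11.8 CPM in monocytes/macrophages. How the authors' counting divided reads between the pair was not tested. With the haemoglobin block, Myo1f, a myosin of leukocytes named here after its values were seen, was also called lower in Lag3KO_CD4 in 4 classes (edgeR adjusted p = 0.00331 in other T cells, 0.0494 in Tregs, 0.00287 in microglia and 0.00406 in monocytes/macrophages). Its differences with the block were -1.52 ± 0.18, -1.42 ± 0.29, -2.06 ± 0.48 and -1.95 ± 0.45 in that order of classes, and without it -1.52 ± 0.20, -1.39 ± 0.30, -2.06 ± 0.47 and -1.96 ± 0.43 (edgeR adjusted p = 0.178, 0.190, 0.122 and 0.123). In other T cells of the CD45 libraries Myo1f measured 51.5 CPM in Lag3KO_CD45 1 and 59.6 and 57.3 CPM in those labelled WT_CD45. In the same order it measured 68.9, 83.1 and 106 CPM in monocytes/macrophages and 41.2, 43.9 and 84.3 CPM in microglia. In Tregs it measured 15.6, 10.8 and 34.5 CPM, from 3, 2 and 11 UMIs. Lag3KO_CD45 1 thus lay between the others in Tregs and below both elsewhere, by less than in the CD4 libraries, without a test.

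Across the 27 class by library sums of the CD45 libraries, the 5 genes whose log2 CPM ran most like Tmsb10, of 2454 compared, were Gm9844 (Pearson r = 0.91), Lcp1 (0.79), Vasp (0.74), Actr3 (0.72) and Vim (0.71). The other members ran from 0.35 (Coro1a) to 0.65 (Cotl1), with Tmsb4x at 0.47. These values describe sums that share libraries and depth, and they carry no test. Among the relatives of the members, the coronin Coro1b had 171 and 172 CPM over all barcodes of Lag3KO_CD4 and 160.1 and 167 CPM over those of WT_CD4, without a test.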

How the data were processed

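Single-cell 3′ libraries were made with 10x Genomics v2 chemistry and sequenced on an Illumina NextSeq, per the labels' protocols. The deposited matrices hold UMI counts per gene and barcode, made by the authors with Cell Ranger on mm10 (GRCm38), and Seurat is also named, per the submitters' processing notes. The file headers give Cell Ranger 3.0.2 for the CD4 matrices, and the version for the CD45 matrices is not given in the sources used here.

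Of 13922 barcodes, 13411 were kept: at least 200 genes, at most 10% mitochondrial UMIs, and without the barcodes with the highest doublet scores (the share of simulated doublets among the nearest neighbours, scikit-learn 1.9.0), a share that grew with the number of barcodes. Barcodes were classed by markers in Python 3.11.15 with numpy 2.4.6 and scipy 1.17.1. T cells needed 20 marker UMIs per 10000 from 2 markers, Tregs 20 more from 2 Treg markers, and monocytes/macrophages 150 from 4. These gates were set after the marker levels of the barcodes had been seen. UMI counts were summed per library and class and tested with edgeR 4.0.16 (limma 3.58.1, R 4.3.3; quasi-likelihood, TMM, filterByExpr, two-sided, Benjamini-Hochberg over all genes tested), with library as a block between classes. The SE is the log2 difference divided by the root of the F statistic. The fits were tested on simulated data.

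Alternatives were DESeq2 1.42.0, scaling by total UMIs, no count filter, no barcode filter, each library left out, all 7 libraries with the sort as a term, and Leiden clusters (scanpy 1.11.5, leidenalg 0.10.2) made without the members. A block for haemoglobin, the class fit in the CD4 libraries and the sum of Tmsb10 and Gm9844 were chosen after seeing the data. Near copies were found with BLAST 2.17.0. The members, the marker lists and the 83-gene list were chosen with earlier results of these data known. All members are named, as are listed genes called between genotypes, up to 3 per part of the list by the T cell difference, and for Tmsb10 the 5 most alike genes and up to 10 lower in every class, by median. Classes under 20 barcodes in any library were not compared.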

Additional observations from a re-analysis of the deposited data

Results flagged for a closer look

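In 6 cases every Lag3KO library lay on one side of every WT library in the CD4 set and on the opposite side in the CD45 set, within 1 class. How often other genes take opposite sides in this way was not counted, so the number of cases is no result about the members. The values below are differences on the log2 scale, Lag3KO minus WT, and the difference between the sets was not tested. In other T cells Cotl1 was -0.0458 in the CD4 libraries and 0.51 in the CD45 libraries, Pfn1 -0.0648 and 0.13, Cfl1 -0.0765 and 0.19, and Coro1a -0.0537 and 0.21. In Tregs Tmsb4x was -0.0629 in the CD4 libraries and 0.10 in the CD45 libraries, and in monocytes/macrophages Cotl1 was -0.0446 and 0.0297. None of the CD4 values was past the threshold of edgeR's quasi-likelihood test, and the CD45 set has 1 Lag3KO library, which alone sets the side there. Other cases took the same side in both sets. Every Lag3KO library was below every WT library for Actb and Pfn1 in Tregs, and above for Tmsb4x, Pfn1 and Vim in microglia. The remaining members in the classes shared by both sets were not separated by genotype in both.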

How the results depend on the processing

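No paired analysis was possible because replicate numbers were given here in the order of deposit, and the labels tie no library of one group to a library of another. The haemoglobin block groups the CD4 libraries by a measured property and not by a pairing in the labels. With 1 library left out, a lone library of a group is assumed to vary like the others. Between classes of the CD45 libraries, the 9 members called in other T cells became 5 in the 4 CD4 libraries and 5 to 10 with 1 library left out, and the 7 in Tregs became 4 without a count filter, 4 in the CD4 libraries and 4 to 5 with 1 left out. In microglia 3 to 4 were called with 1 left out. Between Tregs and other T cells, the 7 members called became 3 with DESeq2, 3 with total UMIs and 4 to 7 with 1 left out, and the 18 listed genes became 9 with DESeq2. Between genotypes, the 0 members called in Tregs became 1 with the haemoglobin block, and the 0 in neutrophils became 0 to 1 with 1 library left out. The 2 listed genes became 4 in microglia without a count filter, and in neutrophils 0 with DESeq2 and 1 to 2 with 1 left out. The median Tmsb10 difference of -0.64 between CD45 libraries ran from -0.81 to -0.47 with 1 WT library left out. The causes were not tested.

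Signs turned for 26 values, each not past the threshold under the alternative. With 1 library left out, the genotype difference of Tmsb10 ran from -0.40 to 0.24 in other T cells, -0.33 to 0.19 in Tregs, -0.023 to 0.76 in microglia, -0.35 to 1.03 in neutrophils and -0.59 to 0.40 in monocytes/macrophages. That of Actb ran from -0.60 to 0.0031 in other T cells, -0.76 to 0.080 in neutrophils and -0.95 to 0.096 in monocytes/macrophages. With clusters, Tmsb10 was -1.36 in neutrophils and 0.073 in monocytes/macrophages. It was 0.033 in monocytes/macrophages without a count filter, and -0.18 in microglia over all 7 libraries. The fit over all 7 libraries holds the CD45 libraries, whose Tmsb10 difference was used to choose the members. Its Tmsb10 value is therefore no independent check. For migratory dendritic cells minus monocytes/macrophages, Tmsb10 was -0.019 with DESeq2, -0.16 with total UMIs, -0.16 without a filter, -0.076 with clusters and -0.081 to 0.021 with 1 left out, and for other T cells Actb was -0.0048 with clusters. For Tregs minus other T cells, Tmsb4x was 0.0079 with total UMIs, Pfn1 was -0.019 and Coro1a -0.0069 without a filter, and with 1 left out Pfn1 ran from -0.010 to 0.042 and Coro1a from -0.00022 to 0.050. Of the other values, 69 lost their call with the sign kept, 5 gained one and 606 stayed on their side. Fewer than 100 barcodes in most CD45 classes limit precision there.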

Other observations

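Small and mixed sets of barcodes that entered no comparison also held less Tmsb10 in Lag3KO_CD45 1. In barcodes with CD8 T cell markers Tmsb10 was 3506 CPM in Lag3KO_CD45 1 and 5732 and 5004 CPM in the libraries labelled WT_CD45, and in those with NK cell markers 3191 CPM against 4871 and 4378 CPM. In barcodes with markers of several classes it was 1907 CPM against 3364 and 2673 CPM, and in those of no class 2280 CPM against 3949 and 3534 CPM. Neutrophils went otherwise, at 1543 CPM in Lag3KO_CD45 1 and 2177 and 1470.3 CPM in the libraries labelled WT_CD45, from 21, 33 and 11 barcodes. These barcodes had medians of 8436, 9005 and 8174 UMIs in that order, against 883 to 1238.5 UMIs in neutrophils of the CD4 libraries. Their monocyte/macrophage markers summed to 25472 CPM in Lag3KO_CD45 1 and 37594 CPM in WT_CD45 1, against 6658 to 9358 CPM in the CD4 libraries. The part of monocyte/macrophage RNA in these neutrophil levels was not tested.

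Migratory dendritic cells of the CD45 libraries differed in other actin genes too. Of the 70 listed genes tested, 31 were higher and 18 lower than in monocytes/macrophages by edgeR's quasi-likelihood test, where 24.5% of all genes were higher and 25.3% lower. Among tropomyosins and myosins, which stabilise and pull on filaments, 8 of 10 were higher and 1 lower, with a median difference of 1.17 where that of all genes was -0.06. Fscn1, which bundles filaments, is in this list and is also a marker used to find these cells. In plasmacytoid dendritic cells 8 of the 70 were higher and 37 lower, where 23.4% of all genes went each way, and in microglia 3 were higher and 16 lower, where 8.01% of all genes were higher and 6.52% lower.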
